A study of Rattus norvegicus with 2 samples.

Results

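The genes described here encode 8 small calcium-binding proteins, 6 of the S100 family (S100b, S100a1, S100a4, S100a6, S100a10 and S100a11) and the 2 calbindins Calb1 (calbindin) and Calb2 (calretinin). They were taken by symbol from the gene table of both libraries, which lists 32623 genes, and all 8 were found. The libraries hold single cells of the cochlear duct of Sprague-Dawley rats, 1 library at postnatal day 1 (P1) and 1 at postnatal day 7 (P7). By the study's methods each was made from pooled animals, and stria vascularis, spiral ligament and spiral ganglion were dissected away before the tissue was dissociated. With 1 library per age, age and library cannot be told apart, and the ages are compared by levels and ratios with no p-value. The intervals in parentheses are exact 95% Poisson or binomial intervals and leave out every source of error but counting.

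S100 proteins bind calcium through paired EF hands, usually as dimers, and the calcium-loaded form of most of them opens a surface that binds other proteins, among them the annexins. S100a10 is the exception, since it has lost calcium binding and is held in a complex with annexin A2. Calbindin and calretinin carry more EF hands and act as fast calcium buffers, and both are long-standing markers of hair cells and of subsets of neurons in the inner ear, while S100b is a classical marker of Schwann cells and other glia.

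The promoter windows below, from 250 bases before to 50 bases after the transcript start, were taken from RefSeq on the GRCr8 assembly, which differs from the rn6 assembly the counts were made on. They are shown for S100a4 and S100a6, which at P7 were both highest among glial cells in those with most myelin genes, and for S100b, which was not. RefSeq windows were at hand for 4 of the 8 genes, these and S100a11. In the RefSeq gene order S100a4 and S100a6 lie on chromosome 2 with S100a5 between them, S100a3 lies on the other side of S100a4 beyond the pseudogene S100a2, and S100b is on chromosome 20. Capitals mark the TATA core TATAA, the SOX core ACAAAG and the E-box CANNTG, searched on both strands with matches allowed to overlap, and each window is written 5′ to 3′ on the gene's strand.
S100a6, chr2:178398287-178398586, plus strand: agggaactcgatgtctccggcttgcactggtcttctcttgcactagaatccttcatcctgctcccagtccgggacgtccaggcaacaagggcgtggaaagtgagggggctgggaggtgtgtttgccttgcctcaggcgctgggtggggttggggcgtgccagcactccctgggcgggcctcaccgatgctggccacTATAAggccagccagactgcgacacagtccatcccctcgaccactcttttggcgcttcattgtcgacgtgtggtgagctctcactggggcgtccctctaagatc
S100a4, chr2:178388279-178388578, plus strand: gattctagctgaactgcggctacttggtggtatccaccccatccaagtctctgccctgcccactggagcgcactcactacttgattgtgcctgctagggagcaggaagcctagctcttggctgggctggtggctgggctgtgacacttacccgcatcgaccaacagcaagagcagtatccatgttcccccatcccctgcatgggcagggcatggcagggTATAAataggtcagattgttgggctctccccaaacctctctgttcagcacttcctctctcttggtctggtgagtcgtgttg
S100b, chr20:12381032-12381331, minus strand: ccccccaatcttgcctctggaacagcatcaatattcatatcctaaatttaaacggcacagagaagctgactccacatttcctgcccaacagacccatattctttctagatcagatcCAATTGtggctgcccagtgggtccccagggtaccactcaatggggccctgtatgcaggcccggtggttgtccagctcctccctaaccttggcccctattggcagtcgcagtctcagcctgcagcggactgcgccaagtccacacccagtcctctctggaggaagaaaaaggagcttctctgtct
S100a4 and S100a6 each hold 1 TATA core before the start, nearer to it in S100a4 than in S100a6, and neither of the other motifs. S100b holds 1 E-box and neither of the others. Among 33469 RefSeq windows of the same length, 26.2% hold TATAA, 18.8% ACAAAG and 72.1% CANNTG, so each of these matches is common.

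After limits on genes, UMIs (unique molecular identifiers, 1 per captured transcript molecule) and mitochondrial share, 12779 of 14068 barcodes were kept at P1 and 12581 of 14501 at P7, with 98005495 and 93080129 UMIs and medians of 6565 and 6878 UMIs per cell. Levels are given as CPM, a gene's UMIs scaled to 1000000 UMIs of the cells summed. The 2 libraries share 60 barcodes, of which 53 were kept in both. Cells were put into classes by the number of marker genes with a UMI, or by a score over marker genes for 4 mesenchymal classes, and none of the 8 genes was a marker. The classes of at least 50 cells at both ages were glia-like (1698 cells at P1 and 3660 at P7), endothelial-like (162 and 182), pericyte-like (311 and 271), macrophage-like (145 and 166), epithelial-like (218 and 113), and the mesenchymal classes Otor-high (1340 and 1362), Gpc3-Edn3-Vcan (1870 and 2370), Aldh1a2-Scara3 (1144 and 911) and Ccn3-Irx3-Scg3 (1619 and 613). Neuron-like cells numbered 278 at P1 and 23 at P7, hair cell-like cells 23 and 0, and 29.7% and 21.6% of cells stayed ungated. The label of both samples is greater epithelial ridge cell, but the epithelial-like class, in which all 12 genes of the epithelial list (Epcam, Cdh1 and the keratins Krt8, Krt18 and Krt19 among them) stood above the other cells, held 1.71% of the cells at P1 and 0.898% at P7. In each of the 9 classes the class's own marker list stood above the other cells at both ages, for every gene of the list except 1 of 9 in the Otor-high class. The gates select for these genes, the 12 epithelial ones included, so this is no separate evidence of what the cells are. Clusters of the cells, made from genes other than the 8 and the markers and with no correction for library, split 5 of these classes by age. Glia-like cells lay mostly in cluster 2 at P1 (74.3% of them, and 0.383% at P7) and in clusters 26 and 27 at P7 (47.9% and 18.0%, and 0.177% and 0% at P1). Of Otor-high cells, clusters 15 and 8 held 45.6% and 33.6% at P1, and clusters 22 and 16 held 51.5% and 34.3% at P7. Gpc3-Edn3-Vcan cells lay in clusters 4 and 5 at P1 and 12 and 11 at P7, Aldh1a2-Scara3 cells in 10 and 3 and then 24 and 17, and Ccn3-Irx3-Scg3 cells in 3 and 8 and then 16 and 17. In these 5 classes a ratio between the ages therefore sets largely different clusters beside each other. In endothelial-like, pericyte-like, macrophage-like and epithelial-like cells 1 cluster each held at least 86.7% of the class at both ages. The reverse did not hold for the epithelial-like class. Its cluster, cluster 7, had 512 cells, 299 of them at P1, and the epithelial gate took 213 of these cells at P1 and 110 at P7. The share of cells that pass this gate is therefore not the share of epithelial cells. Fewer cells with a transcript and fewer transcripts per cell are given apart below, as the share of cells with a UMI and as the level.

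**Figure D1:**
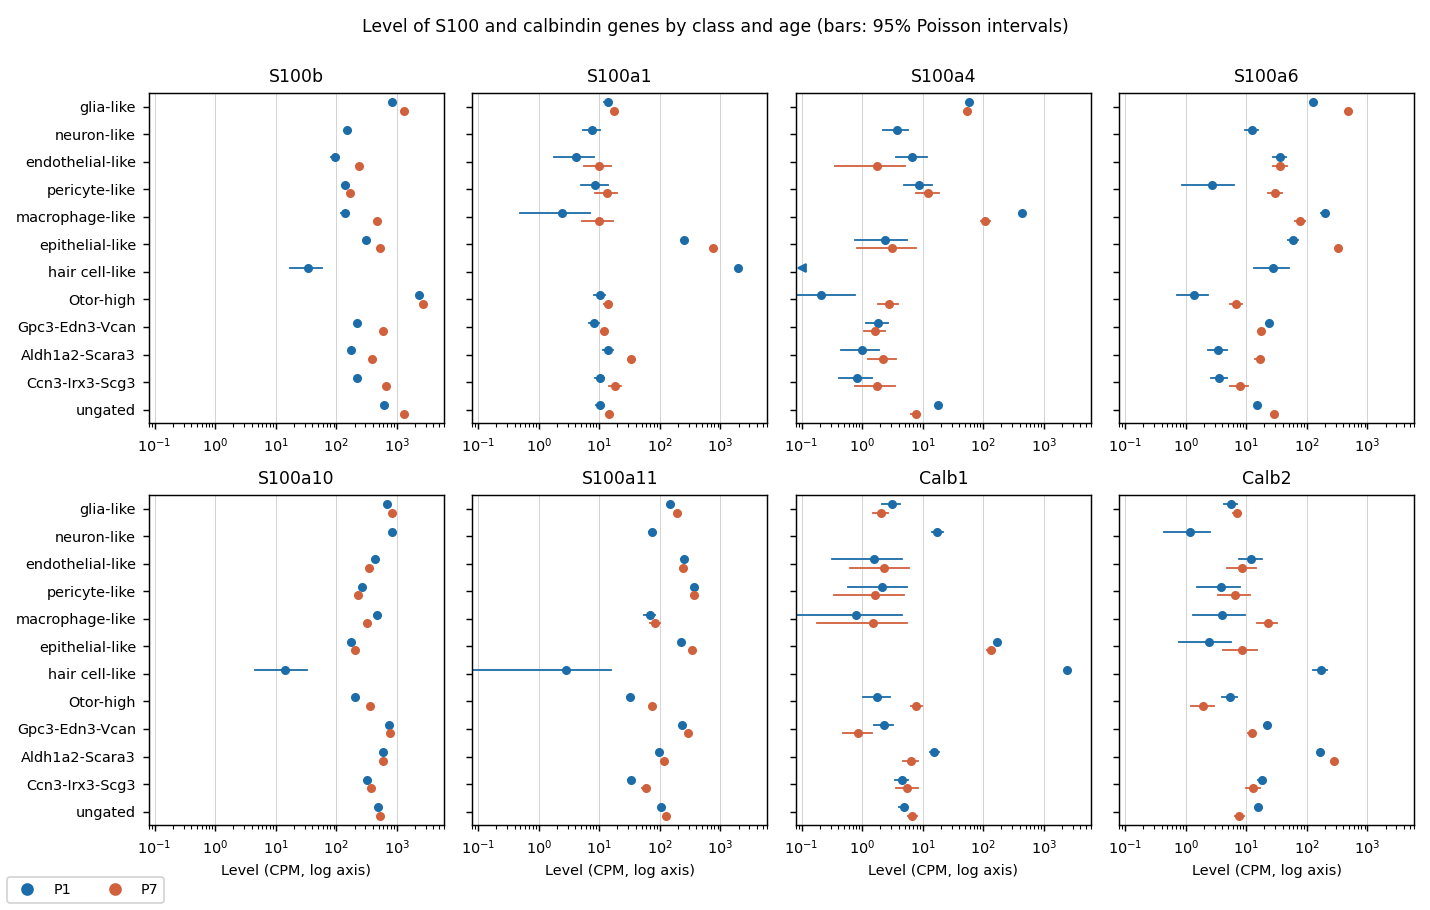
Level of each gene in CPM on a log axis, by class, at P1 (blue) and P7 (orange), with 95% Poisson intervals as bars; classes under 50 cells are left out except the 23 hair cell-like cells of P1, and the arrow marks a gene with no UMI. S100b, S100a10 and S100a11 were spread over many classes, while S100a1, Calb1, Calb2, S100a4 and S100a6 each stood highest in 1 or 2 classes.

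Over all cells kept, S100a6 and S100b stood at least 2-fold higher at P7 and Calb1 at least 2-fold lower. S100a6 went from 28.7 to 157 CPM, a log2 ratio of 2.45 (2.39 to 2.51). S100b went from 587 to 1179 CPM, a log2 ratio of 1.01 (0.99 to 1.02), and Calb1 from 17.6 to 6.36 CPM, a log2 ratio of -1.47 (-1.61 to -1.33). The other 5 stayed within 2-fold. S100a11 had a log2 ratio of 0.56, S100a1 of 0.32, S100a10 of 0.28, and S100a4 and Calb2 both of 0.09. Of the 8222 genes of at least 10 CPM in the higher library, 9.74% stood at least 2-fold higher at P7 and 6.57% at least 2-fold lower, against 2 and 1 of the 8 genes here. The median log2 ratio of all these genes was 0.13, and relative to it S100b stood at 0.88, under 2-fold. S100b lies so near the 2-fold line that other scalings also took it below (0.92 with mitochondrial, ribosomal protein and haemoglobin genes left out of the total, 0.83 as a mean over cells).

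S100b (ENSRNOG00000001295), the calcium sensor by which Schwann cells are commonly stained, was highest in Otor-high cells, fibrocyte-like mesenchyme rich in Otor, Coch and Crym, and not in glia-like cells. Crym, Col9a1 and Col9a2, among the defining genes of that class, were named by the study from these libraries. It listed S100b with them among the top genes of the same cluster, so the match is not independent of the study. In Otor-high cells S100b stood at 2288 CPM (2257 to 2318) at P1 and 2681 CPM (2651 to 2711) at P7. In glia-like cells it stood at 817 CPM (800.4 to 834) and 1328 CPM. Otor-high cells held 38.0% of all S100b UMIs at P1 and 27.7% at P7, and glia-like cells 16.3% and 31.3%. The median Otor-high cell held 13 S100b UMIs at P1 and 19 at P7.

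With every cell thinned to 2000 UMIs, S100b was found in 86.6% of Otor-high cells at P1 and 94.98% at P7, and in 73.6% and 85.8% of glia-like cells. Without thinning it was found in 70.3% of all cells at P1 and 88.3% at P7. S100b was measured in every class of at least 50 cells, down to 94.2 CPM in endothelial-like cells at P1 and 166 CPM in pericyte-like cells at P7. Thinned, 10.4% (6.06 to 16.3) of endothelial-like cells had a UMI at P1 and 21.8% (15.8 to 28.9) at P7, at median depths of 9657 and 8366 UMIs, against 6488.5 and 7994 in Otor-high cells.

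Otor, the most abundant marker of the Otor-high class, was also present in endothelial-like, pericyte-like and macrophage-like cells, at 1169, 1187 and 1564 CPM at P1 and 1776, 1020.1 and 3226 CPM at P7. Over all cells kept there were 9.62 S100b UMIs per 100 Otor UMIs at P1 and 17.7 at P7. In the 3 vascular and immune classes the ratio was 8.06, 11.9 and 8.997 at P1 and 13.2, 16.3 and 14.8 at P7. These values lay near the ratio of the whole library. Gpc3-Edn3-Vcan cells lay near it too, with 12.4 and 18.2 per 100. Glia-like cells lay far above, with 54.7 and 72.3 per 100, and epithelial-like cells with 39.3 and 38.9. The level of S100b in the vascular and immune cells is not read as expression by these cells, and the part of free RNA in it, as in Gpc3-Edn3-Vcan cells, was not tested. Otor was chosen for this comparison after its values were seen, and the ratio of the whole library does not measure free RNA.

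**Figure D2:**
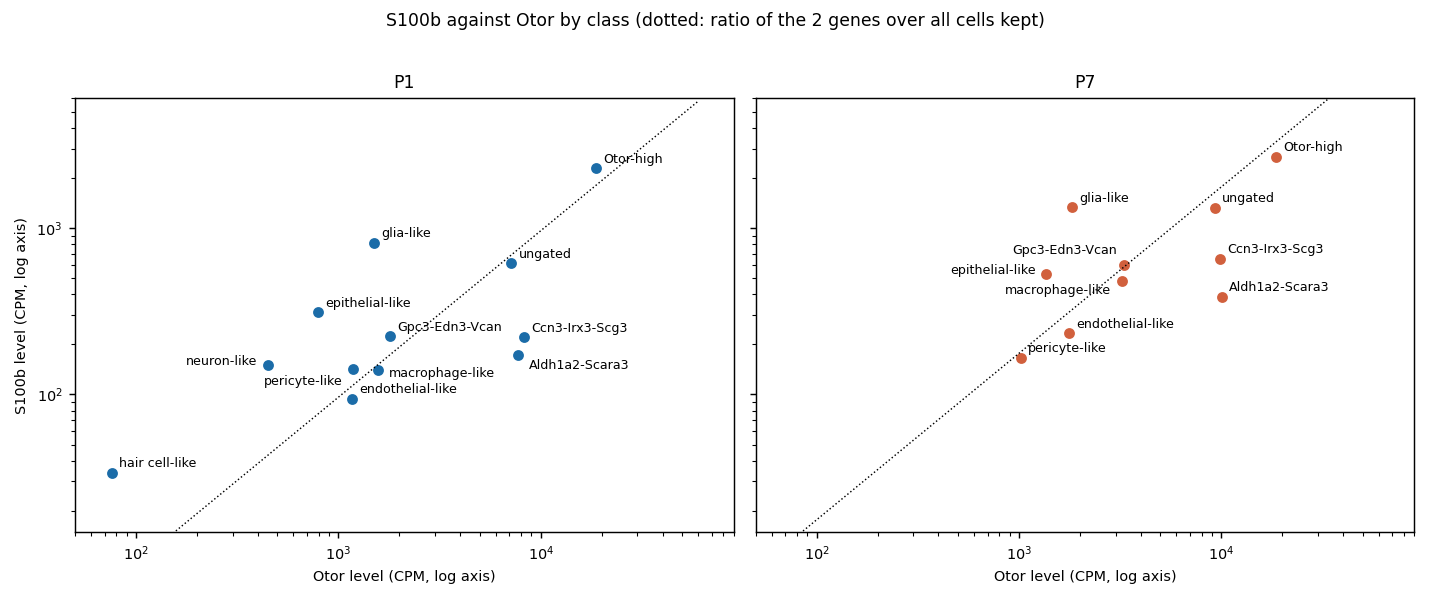
S100b level against Otor level by class, both in CPM on log axes, at P1 (left) and P7 (right); the dotted line is the ratio of the 2 genes over all cells kept. Endothelial-like, pericyte-like, macrophage-like and Gpc3-Edn3-Vcan cells lie near the line, glia-like and epithelial-like cells above it, and Aldh1a2-Scara3 and Ccn3-Irx3-Scg3 cells, which hold much Otor, below it.

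The P7 to P1 difference of S100b was smaller in the 2 classes where it was highest than in the rest of the mesenchyme. Its log2 ratio was 0.23 (0.20 to 0.25) in Otor-high cells and 0.70 (0.67 to 0.73) in glia-like cells. It was 1.43 (1.37 to 1.49) in Gpc3-Edn3-Vcan cells, 1.16 (1.07 to 1.25) in Aldh1a2-Scara3 cells and 1.57 (1.49 to 1.64) in Ccn3-Irx3-Scg3 cells. In these 3 classes the levels went from 223 to 602, from 173 to 386 and from 220.2 to 653 CPM. Vascular and immune cells, where S100b is not read as expression, had log2 ratios in the same range, 1.31 (1.05 to 1.57) in endothelial-like cells, from 94.2 to 234 CPM, and 1.77 (1.52 to 2.02) in macrophage-like cells, from 141 to 479 CPM, while pericyte-like cells stood at 0.23 (-0.01 to 0.48). Per 100 Otor UMIs, Aldh1a2-Scara3 cells held 2.23 and 3.83 S100b UMIs and Ccn3-Irx3-Scg3 cells 2.65 and 6.64, below the ratio of the whole library, and the part of free RNA in the values of the 3 mesenchymal classes was not tested. Such differences are not rare there, since 9.21%, 10.5% and 12.1% of genes stood at least 2-fold higher in these classes. Where classes were taken from clusters instead of marker gates, the log2 ratio was 0.38 in Ccn3-Irx3-Scg3 cells and -0.20 in Otor-high cells.

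S100a6 (ENSRNOG00000011647), also called calcyclin, had the largest ratio between the libraries of the 8 genes, and most of its UMIs at P7 came from glia-like cells with many myelin genes. Glia-like cells held 50.9% of its UMIs at P1 and 84.8% at P7. Those with a UMI of at least 7 of 10 myelin genes (Mag, Prx, Pmp2, Cldn19, Mbp, Egr2, Drp2, Gldn, Mal and Ncmap), which mark myelinating Schwann cells, numbered 22 at P1 and 277 at P7, or 0.172% and 2.20% of the cells kept. They held 13.3% of all S100a6 UMIs at P1 and 66.9% at P7.

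Within glia-like cells the level of S100a6 was higher the more myelin genes a cell had, except from 5 to 6 and from 7 to 8 at P1, and at most numbers up to 7 the intervals of the ages overlapped. They did not at 5 myelin genes, where P1 stood at 184 and P7 at 138 CPM, and at 6, with 153 and 255 CPM. Cells with no myelin gene stood at 50.9 CPM at P1 and 52.2 CPM at P7, cells with 4 at 117 and 118 CPM, and cells with 7 at 1249 CPM (1061 to 1461, 12 cells) and 1081 CPM (1019 to 1146, 104 cells). At P7 the level was 3641 CPM in 107 cells with 8 myelin genes, 5835 CPM in 46 cells with 9 and 6022 CPM in 20 cells with all 10. Such cells were few at P1, where 7 cells with 8 myelin genes stood at 1209 CPM (976 to 1481). Detecting more genes also takes depth, and the median was 9511 UMIs in P7 cells with at least 7 myelin genes against 4145 in those with 0 to 2.

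**Figure D3:**
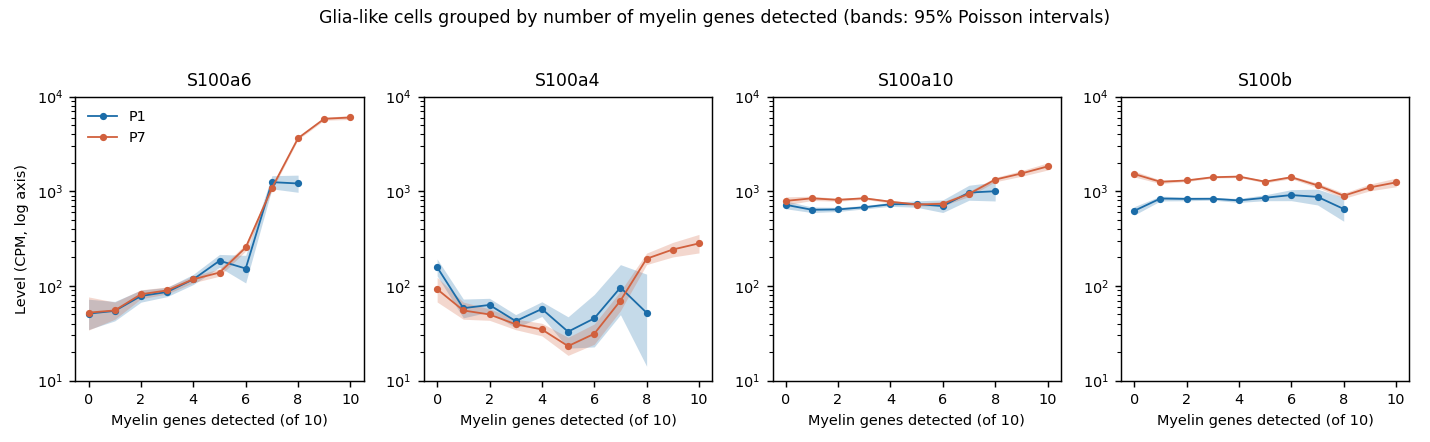
Level in CPM on a log axis of S100a6, S100a4, S100a10 and S100b in glia-like cells grouped by the number of 10 myelin genes with a UMI, at P1 (blue) and P7 (orange), with 95% Poisson intervals as bands; groups under 5 cells are left out. S100a6 runs from 50.9 and 52.2 CPM at 0 myelin genes to 6022 CPM at 10, while S100b stays between 621 and 1522 CPM.

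Summed over glia-like cells S100a6 went from 125 to 479 CPM, a log2 ratio of 1.94 (1.86 to 2.02), and it was the 1 gene of the 6 at 10 CPM or more there that stood at least 2-fold higher, where 9.86% of genes did, and none of the 6 was 2-fold lower, where 7.96% were. Without the cells of 7 or more myelin genes, an alternative chosen after seeing the data, the log2 ratio in glia-like cells was 0.28. Over all cells kept it was then 1.10, and without any glia-like cell 1.04. Within the cells of 7 or more myelin genes it was 1.07 (0.92 to 1.22), from 1601 to 3363 CPM. Its distribution over cells was long-tailed, since 71 cells held 50% of all S100a6 UMIs at P7 and the highest cell held 285. The share of thinned glia-like cells with a UMI differed less, 14.4% at P1 and 20.2% at P7.

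S100a6 was also higher at P7 in epithelial-like and pericyte-like cells and lower in macrophage-like cells. Epithelial-like cells went from 59.2 CPM (49.3 to 70.6) to 329 CPM (299 to 362), a log2 ratio of 2.47 (2.18 to 2.77), and 1 of the 113 cells at P7 held 144 of the 429 UMIs. Pericyte-like cells went from 2.71 CPM, 5 UMIs, to 30.3 CPM (22.8 to 39.5), 55 UMIs of which 1 cell held 28, a log2 ratio of 3.49 (2.18 to 5.16). Macrophage-like cells went from 197 CPM (173 to 223) to 77.2 CPM (63.0 to 93.6), a log2 ratio of -1.35 (-1.70 to -1.01), which ran over the alternatives from -2.49 without doublets to -0.69 under a gate of 1 more marker. At P7 1 macrophage-like cell held 51 of the 103 S100a6 UMIs, and at P1 1 held 50 of 245. Without the cell of most UMIs at each age, an alternative chosen after seeing the data, the log2 ratio was -1.999 in macrophage-like, 2.34 in epithelial-like and 3.20 in pericyte-like cells. As a level that free RNA could reach, Otor-high cells held 1.36 and 6.87 CPM of S100a6 at P1 and P7, found in 0.227% and 1.98% of thinned cells, and S100a6 at or below such levels is not read as expression. The part of free RNA in the levels of epithelial-like, pericyte-like, macrophage-like and Aldh1a2-Scara3 cells was not tested.

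S100a4 (ENSRNOG00000011821), a protein that binds nonmuscle myosin and is abundant in some myeloid cells, was found mainly in macrophage-like, glia-like and ungated cells and hardly in the mesenchymal classes. Macrophage-like cells stood at 429 CPM (393 to 467) at P1 and 109 CPM (91.7 to 128) at P7, a log2 ratio of -1.98 (-2.25 to -1.71). Few cells carried this, since 3 of the 145 macrophage-like cells held 50% of their S100a4 UMIs at P1, and 4 of 166 at P7. The median macrophage-like cell held none at either age. All 13 macrophage markers stood above the other cells in this class at both ages, which its gate selects for. Their summed level was 31335 and 19648 CPM. Of 11 neutrophil markers, 2 and 0 stood above the other cells, with 28.2 and 1.499 CPM. The neutrophil alarmins S100a8 and S100a9, which are not on that list, stood at 191 and 210 CPM in macrophage-like cells at P1, against 9.94 and 15.3 CPM in the ungated cells, the next highest of the classes compared, and at 10.5 and 5.25 CPM at P7. They were lower at P7 as S100a4 and S100a6 were, and the part of neutrophil RNA in these values was not tested. Glia-like cells stood at 57.9 CPM and 53.6 CPM, against 13.1 and 6.48 CPM over the other cells, and held 36.9% and 76.0% of the S100a4 UMIs. In glia-like cells of 7 or more myelin genes it was 103 CPM (66.0 to 153) and 167 CPM (153 to 183), and in those with 3 to 6 it was 46.0 and 33.4 CPM, so at P7 the glial cells highest in S100a4 were those highest in S100a6. Unlike S100a6, S100a4 did not increase step by step with the number of myelin genes, since P7 cells with none stood at 92.4 CPM and those with 5 at 23.1 CPM, and P1 cells with none, at 158 CPM (128 to 193), stood above the 96.1 CPM of those with 7. Ungated cells held 25.6% of the S100a4 UMIs at P1 and 7.81% at P7, and went from 18.0 to 7.74 CPM, a log2 ratio of -1.22 (-1.50 to -0.95). At P1 1 ungated cell held 143 of their 461 UMIs. Without glia-like cells the log2 ratio over the remaining cells was -1.02.

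S100a10 (ENSRNOG00000023226), the annexin A2 partner, was spread over all classes of at least 50 cells. It was found in 54.4% of cells at P1 and 62.4% at P7 after thinning. Its highest level at P1 was in neuron-like cells, at 831 CPM (806 to 856), followed by 738 CPM in Gpc3-Edn3-Vcan cells and 692 CPM in glia-like cells. At P7 glia-like cells were highest with 848 CPM, Gpc3-Edn3-Vcan cells stood at 776 CPM and Aldh1a2-Scara3 cells at 590.3 CPM. Epithelial-like cells were low, at 177 and 204 CPM, and the 23 hair cell-like cells at P1 held 5 UMIs, or 14.1 CPM (4.58 to 32.9). Its ratio between the ages stayed within 2-fold in every class of at least 50 cells at both ages, from -0.54 on the log2 scale in macrophage-like cells to 0.83 in Otor-high cells. In glia-like cells with all 10 myelin genes it stood at 1829 CPM at P7. Among the classes of at least 50 cells, Anxa2, its partner, was highest in endothelial-like cells at P1 (361 CPM) and in glia-like cells at P7 (309 CPM).

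S100a11 (ENSRNOG00000010105), a partner of annexin A1 in membrane and cytoskeletal contacts, was highest, among the classes of at least 50 cells, in pericyte-like cells and did not differ there between the ages beyond counting error. Pericyte-like cells stood at 366 CPM (339 to 395) at P1 and 362 CPM (334 to 390) at P7, a log2 ratio of -0.02 (-0.18 to 0.14). Epithelial-like cells went from 224 to 338 CPM, a level whose interval at P7 (307 to 371) overlapped that of pericyte-like cells. Endothelial-like cells stood at 248 and 242 CPM and Gpc3-Edn3-Vcan cells at 234 and 294 CPM, and the latter held the largest share of its UMIs, 27.6% and 31.1%. In Otor-high cells S100a11 went from 32.1 to 75.2 CPM, a log2 ratio of 1.23 (1.04 to 1.42), the 1 call among 4 genes of at least 10 CPM there, where 13.7% of genes were at least 2-fold higher and 5.59% lower. Anxa1 in epithelial-like cells went from 60.6 to 409 CPM. RefSeq lists further S100a11-like genes in GRCr8, and whether reads of these reached the S100a11 count was not tested.

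**Figure D4:**
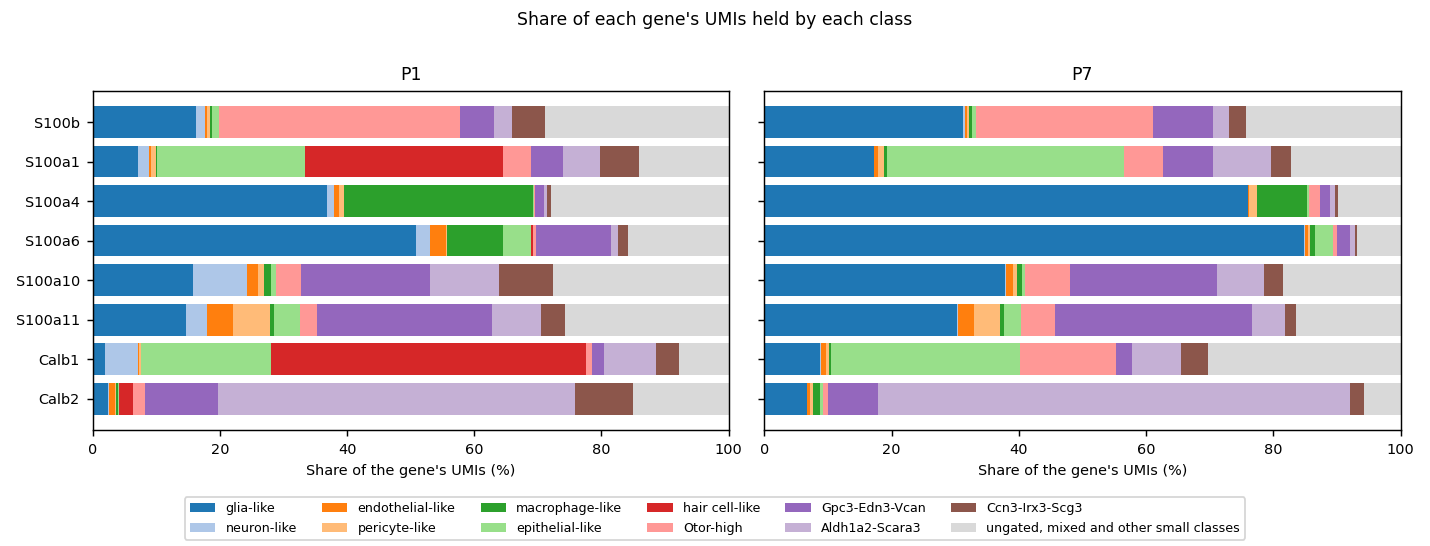
Share of each gene's UMIs, in percent, held by the cells of each class at P1 (left) and P7 (right). Glia-like cells held 50.9% of S100a6 UMIs at P1 and 84.8% at P7, hair cell-like cells 49.5% of Calb1 UMIs at P1, and Aldh1a2-Scara3 cells 56.0% and 74.1% of Calb2 UMIs.

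S100a1 (ENSRNOG00000012410), known mainly as a regulator of calcium cycling in muscle, was an epithelial and hair cell gene in these libraries. The 23 hair cell-like cells of P1, defined by at least 6 of 14 genes such as Pou4f3, Myo7a and Otof, stood at 1962 CPM (1819 to 2113), and each of the 23 held a UMI. Epithelial-like cells stood at 249 CPM (228 to 272) at P1 and 759 CPM (713 to 808) at P7, a log2 ratio of 1.61 (1.45 to 1.76), found in 22.5% and 49.5% of thinned cells. Aldh1a2-Scara3 cells came next (14.1 and 33.9 CPM), leaving aside the cells with markers of several classes. Epithelial-like cells held 23.3% and 37.3% of its UMIs and hair cell-like cells 31.1% at P1, and the total over all cells went from 22.8 to 28.5 CPM. With classes taken from clusters the epithelial-like log2 ratio was 0.50.

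Calb1 (ENSRNOG00000007456), the calbindin buffer, was shared between the same 2 classes. Hair cell-like cells stood at 2407 CPM (2249 to 2574) at P1, with 38 UMIs in the median cell and 112 in the highest, and 20 of the 23 cells held a UMI. They were 0.180% of the cells kept at P1 and held 49.5% of all Calb1 UMIs. Epithelial-like cells stood at 169 CPM (151 to 187) at P1 and 135 CPM (116 to 156) at P7, a log2 ratio of -0.32 (-0.59 to -0.06). The median cell held none at either age, and 12 of the 218 cells at P1 and 4 of the 113 at P7 held 50% of these UMIs. Epithelial-like cells with a UMI of under 2 tectorial membrane genes went from 124 to 18.1 CPM, a log2 ratio of -2.78 (-4.68 to -1.37). These were 88 cells with 93 UMIs at P1 and 21 cells with 4 UMIs at P7. No hair cell-like cell was found among 12581 cells at P7, which allows a share of up to 0.0238% if 3 cells are taken as the limit for a count of 0, and 0.0293% by the exact interval. These limits cover kept cells that the gate labels, not hair cells left out before gating or labelled otherwise. Cells with markers of several classes held 12 Calb1 UMIs at P1, or 5.21 CPM, and 52 at P7, or 30.2 CPM, 19 of them in 1 cell. Whether hair cells were among them was not tested. The lower total of Calb1 at P7 stood beside the absence of hair cell-like cells. Among the classes of at least 50 cells, taken whole, where it reached 10 CPM at either age, Calb1 was at least 2-fold lower only in Aldh1a2-Scara3 cells, from 15.5 to 6.37 CPM. The call over all cells also depended on the mitochondrial limit. The hair cell-like cells had a median of 16.1% mitochondrial UMIs and 3 of 23 were under 10%, and with that limit the log2 ratio of Calb1 over all cells was -0.36. With classes taken from clusters it was -1.70 in epithelial-like cells.

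Within the epithelial-like class Calb1 and S100a1 were found together in few cells. At P1, 99 of 218 epithelial-like cells held an S100a1 UMI and 70 a Calb1 UMI, with 18 holding both. Of the cells with S100a1, 18.2% also held Calb1, against 43.7% of those without, and at P7 the shares were 18.1% and 33.3%. S100a6 ran the other way, since at P7 34.9% of cells with S100a1 also held S100a6 against 10.0% of those without, and at P1 22.2% against 10.1%. The 14 hair cell markers summed to 323 CPM in epithelial-like cells at P1 and 211 CPM at P7, and the 10 glial markers to 504 and 433 CPM, and their part in these values was not tested. These shares are not thinned and the cells of a library are not replicates, so they are a description.

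Epithelial-like cells with a UMI of at least 2 of 8 supporting cell genes, such as Sox2, Prox1 and Fgfr3, were the highest in S100a1 and S100a6 and the lowest in Calb1. The 48 such cells at P1 stood at 750.2 CPM (678 to 828) for S100a1, and the 32 at P7 at 1571 CPM (1457 to 1692). S100a6 stood at 186 and 899 CPM there, and Calb1 at 45.9 and 11.2 CPM. At P7, 19 of the 32 cells held an S100a6 UMI, and 1 cell held 144 of their 401 UMIs. Calb1 at P7 rested on 5 UMIs in 2 of these cells. Cells with at least 2 of 8 tectorial membrane genes such as Tecta and Tectb, the kind of epithelium that includes the greater epithelial ridge, stood at 194 CPM (171 to 219) and 159 CPM (136 to 185) for Calb1, and at 328 and 763 CPM for S100a1. Cells with at least 2 of 8 marginal cell genes such as Kcne1 and Kcnq1 stood at 122 and 132 CPM for Calb1. For S100a1 these cells stood at 157 and 841 CPM, and for S100a6 at 11.5 CPM, from 10 UMIs, and 413 CPM. At P7 they held 363 of the 429 S100a6 UMIs of the class, and the cells with supporting cell genes held 401. Most of these UMIs thus lay in cells of both subsets. A cell can be in more than 1 of these subsets, which are small and differ in depth, with medians from 8638 to 14525 UMIs. S100a1 and S100a6 were at least 2-fold higher among the 6 genes of at least 10 CPM in epithelial-like cells, where 14.6% of genes were, and none was 2-fold lower, where 7.78% were.

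Calb2 (ENSRNOG00000016977), calretinin, was chiefly a gene of Aldh1a2-Scara3 mesenchyme here and not of neurons. The defining genes of that class were taken from genes the study named after seeing these libraries, so the match is not independent of it. Aldh1a2-Scara3 cells stood at 164 CPM (156 to 173) at P1 and 278 CPM (266 to 290) at P7, a log2 ratio of 0.76 (0.66 to 0.86), and 12.4-fold and 34.1-fold above the other cells. They held 56.0% of its UMIs at P1 and 74.1% at P7. After thinning, 20.6% and 30.7% of them held a UMI, against 1.13% and 0.228% of Otor-high cells.

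Outside that class Calb2 was mostly lower at P7 where it reached 10 CPM. In Gpc3-Edn3-Vcan cells it went from 22.1 to 12.4 CPM, a log2 ratio of -0.84 (-1.09 to -0.58), and in Ccn3-Irx3-Scg3 cells from 18.1 to 12.9 CPM, a log2 ratio of -0.49 (-0.93 to -0.07). Macrophage-like cells were an exception, with 4.02 CPM from 5 UMIs and 22.5 CPM from 30. The totals over all cells kept were nearly equal, 27.2 CPM at P1 and 29.1 CPM at P7. The shares of the classes also differed between the ages. Glia-like cells went from 13.3% to 29.1% of cells, Ccn3-Irx3-Scg3 cells from 12.7% to 4.87% and Aldh1a2-Scara3 cells from 8.95% to 7.24%. The part of levels and shares in the totals was not tested. The 23 hair cell-like cells stood at 169 CPM (129 to 218), and the 278 neuron-like cells of P1 at 1.17 CPM (0.431 to 2.55) from 6 UMIs.

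In Aldh1a2-Scara3 cells 7 of the 8 genes reached 10 CPM, and S100b, S100a1 and S100a6 were at least 2-fold higher and Calb1 at least 2-fold lower, where 10.5% and 4.49% of genes were. In Gpc3-Edn3-Vcan cells S100b was the only call among 6 genes and none was 2-fold lower, where 7.39% of genes were. In Ccn3-Irx3-Scg3 cells S100b was again the only call, among 5 genes, and 5.64% of genes were 2-fold lower. With so few genes these counts say little beyond the values of the genes named, and S100a6 in Aldh1a2-Scara3 cells rested on 31 and 121 UMIs and had a log2 ratio of 0.72 with classes taken from clusters. A single P7 cell held 61 of the 121, and without the cell of most UMIs at each age S100a6 stood at 2.86 and 8.34 CPM, under the 10 CPM that a call needs. Cluster 7, which held most epithelial-like cells, also held 1.14% of Aldh1a2-Scara3 cells at P1 and 4.17% at P7. Its part in the S100a1 and S100a6 ratios of that class was not tested.

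**Figure D5:**
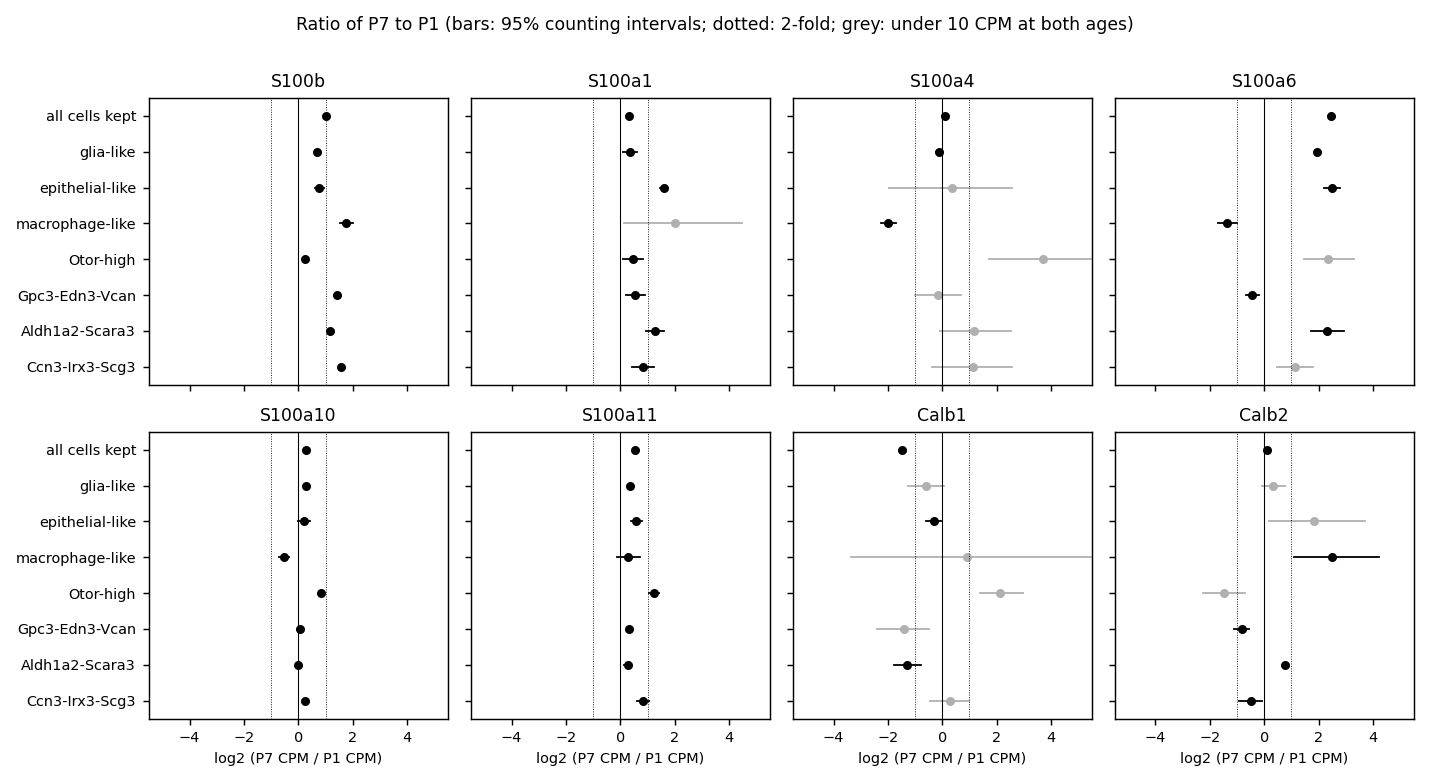
Log2 ratio of P7 CPM to P1 CPM of each gene over all cells kept and in 7 classes, with 95% counting intervals as bars, dotted lines at 2-fold, and grey where the gene was under 10 CPM at both ages. With these gates S100b lies above 0 in every class shown, while in Otor-high cells it was -0.20 with classes from clusters, S100a6 runs, among the classes shown, from 2.47 in epithelial-like to -1.35 in macrophage-like cells, and S100a10 stays within 2-fold.

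The order of the classes was checked gene by gene against counting intervals. For S100b at P7 glia-like and ungated cells did not differ beyond them, nor did Gpc3-Edn3-Vcan and Ccn3-Irx3-Scg3 cells at P1 (223 and 220.2 CPM). For S100a11 at P1 endothelial-like, Gpc3-Edn3-Vcan and epithelial-like cells followed each other with overlapping intervals. For Calb1 and S100a1 every class below the epithelial-like cells lay far lower, and most of them overlapped with their neighbours. For S100b the ungated cells came after Otor-high and glia-like cells at both ages, at 615 and 1325 CPM.

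The levels of the 8 genes over 25 class-by-age sums of at least 50 cells, on the log2(CPM + 5) scale, ran together in 2 pairs. Calb1 and S100a1 had a Pearson r of 0.89, and S100a4 and S100a6 of 0.68, and the next highest r between any pair was 0.38. Glia-like cells entered these sums split by number of myelin genes, epithelial-like cells split by number of tectorial genes, and ungated cells were included. The r of S100a4 and S100a6 was thus taken partly over points split by myelin genes. For Calb1 and S100a1 the epithelial-like points were the highest, though within that class few cells held both genes. The points share 2 libraries and the free RNA in them, so these are descriptions. Among 5722 other genes of at least 50 CPM in some sum, the genes most like S100b were Gstk1 (r = 0.90), Snapc2 and Phgdh, an enzyme of serine synthesis. Those most like S100a1 were Vmo1 (r = 0.97), Oc90, a component of the otoconial matrix, and Upk3bl1, and those most like Calb1 were Spint1 (r = 0.96), an epithelial protease inhibitor, Tmod1 and Wnt7a. S100a6 and S100a4 shared Asah1, the lysosomal acid ceramidase (r = 0.86 and 0.85), with Taldo1 and Zfp706 for S100a6, and Cndp1 and Aspa for S100a4. With a pseudocount of 20 CPM, 0 of the 3 genes named for S100a6 stayed among its first 3, and 2 of 3 for S100a4 and S100a10, while the other genes kept all 3. Calb2 was most like Kcnk2 (r = 0.94), a potassium channel that stands on the marker list of Otor-high cells, Osr1 and Arhgap20. Kcnk2 and Calb2 were both among the genes furthest above the other cells in clusters 10 and 24. These clusters held 63.8% of Aldh1a2-Scara3 cells at P1 and 54.0% at P7. For S100a10 (Lhfpl2, Prss12 and Kiaa0408L) and S100a11 (Itm2a, Bace2 and Plod3) the highest r was 0.81 and 0.80.

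Among 14 other S100 genes listed, 11 were in the gene table and 6 reached 10 CPM over all cells, with 1 at least 2-fold higher at P7, 2 at least 2-fold lower and a median log2 ratio of 0.49, beside 9.74% higher, 6.57% lower and a median of 0.13 over all genes. S100a3 was the one higher, from 1.09 to 10.5 CPM, and stood at 203 CPM in P7 glia-like cells of 7 or more myelin genes and 189 CPM in those of P1. The alarmins S100a8 and S100a9, made by neutrophils, went from 66.9 to 2.90 and from 101 to 4.81 CPM, in libraries with 9 neutrophil-like cells at P1 and 4 at P7. S100a16 was highest in endothelial-like cells, at 514 and 595 CPM.

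The counts of the next 3 lists stand beside the same 9.74% and 6.57% of all genes. Of 22 other EF-hand buffers and sensors listed, 12 of the 19 found reached 10 CPM, none at least 2-fold higher and 2 lower, with a median log2 ratio of 0.22. Pvalb, the buffer parvalbumin, went from 124 to 17.1 CPM and stood at 1677 CPM in neuron-like cells at P1, and Cib2, part of the hair cell transduction complex and itself on the hair cell marker list, from 44.7 to 21.4 CPM. Of 13 annexins and other S100 partners, 11 reached 10 CPM and none passed 2-fold in either direction, with a median log2 ratio of 0.03. Of 18 calcium pumps, exchangers and store genes, 12 reached 10 CPM, with 1 at least 2-fold higher and 2 lower and a median log2 ratio of -0.37. The inositol trisphosphate receptor Itpr3 was the one higher, from 15.9 to 38.8 CPM, and was highest in glia-like cells at P7 (91.6 CPM), while Itpr2 went from 18.0 to 6.17 CPM and the plasma membrane pump Atp2b2 from 13.2 to 1.36 CPM.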

How the data were processed

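Cochlear duct cells of P1 and P7 rats were profiled with 10x 3' V3 chemistry, 1 library per age. The deposited values are whole UMI counts per gene and cell, which the authors made with bcl2fastq and Cell Ranger on the rn6 genome; the submitters' notes also name Seurat 3.1.1. Here a barcode was kept if it had 500 to 5000 genes, no fewer than 500 UMIs and a mitochondrial share below 25%. Doublets marked by Scrublet (4.87% at P1 and 6.16% at P7) stayed in.

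Classes were gated on the number of marker genes with a UMI (for example 4 of 10 glial, 3 of 12 epithelial, 5 of 13 macrophage and 6 of 14 hair cell genes), and the mesenchymal classes on the mean marker score, with 17.9% of cells near a limit. Counts were summed per class and age to CPM, with exact Poisson intervals for levels, exact binomial intervals for ratios of 2 counts and Clopper-Pearson intervals for shares. Shares of cells with a UMI were taken after thinning to 2000 UMIs, which left out 252 cells at P1 and 711 at P7. A gene was called at 2-fold if it reached 10 CPM in the higher library. Intervals cover counting error only. The fold calls and ratio intervals were tested on simulated library totals with counting error only. The gates, clusters and doublet calls were not tested on simulated data.

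The genes named are the 8 members, genes of 4 lists with at least 10 CPM in either library and a large change or level, and for each member the 3 genes of highest correlation. Otor was chosen as a comparison gene after its values were seen. Results that need an item withheld here are not reported. The members and lists were chosen with earlier results of these data known. Alternatives were other scalings, cell filters, gates, clusters in place of gates, and pseudocounts. No column was left unused. Python 3.11.15, numpy 2.4.6, scipy 1.17.1, pandas 2.3.3, scanpy 1.11.5 and matplotlib 3.10.9 were used.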

Additional observations from a re-analysis of the deposited data

Results flagged for a closer look

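S100a6 had ratios of opposite direction in 2 classes. Its log2 ratio of P7 to P1 was 2.47 in epithelial-like cells, from 124 UMIs in 218 cells to 429 UMIs in 113 cells, and -1.35 in macrophage-like cells, from 245 UMIs in 145 cells to 103 UMIs in 166 cells. The difference between the classes was not tested, since each age has 1 library. Over the alternatives the epithelial-like value ran from 2.05 (mean over cells) to 2.79 (1 more marker required) and the macrophage-like value from -2.49 (doublets left out) to -0.69 (1 more marker required).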

How the results depend on the processing

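No paired analysis was possible because there is 1 library per age, and no replicate could be left out. Over all cells kept, no log2 ratio that passed 2-fold changed sign under any alternative. With every deposited barcode the log2 ratios were 1.08 for S100b, 0.47 for S100a1, 0.19 for S100a4, 0.21 for S100a10 and -1.22 for Calb1. As a mean of per-cell values they were 0.83 for S100b, 1.84 for S100a6, 0.34 for S100a10, -1.16 for Calb1 and -0.020 for Calb2. Relative to the median of all genes they were 0.88 for S100b, 0.19 for S100a1, -0.039 for S100a4, 2.32 for S100a6, 0.15 for S100a10, 0.43 for S100a11 and -0.033 for Calb2. With mitochondrial, ribosomal protein and haemoglobin genes out of the total they were 0.92 for S100b, 0.24 for S100a1, 2.37 for S100a6, 0.20 for S100a10, 0.47 for S100a11 and 0.012 for Calb2. Under each of these 3 scalings 1 gene instead of 2 was at least 2-fold higher. Under 10% mitochondrial UMIs they were 0.83 for S100a1, -0.13 for S100a4, 2.29 for S100a6, 0.49 for S100a11, -0.36 for Calb1 and 0.22 for Calb2, with 0 genes at least 2-fold lower; 3 of the 23 hair cell-like cells were then left. Without doublets S100a6 was at 2.54. Chosen after seeing the data, leaving out glia-like cells gave 0.45 for S100a1, -1.02 for S100a4, 1.04 for S100a6, 0.13 for S100a10, -1.28 for Calb1 and 0.32 for Calb2, with 2 genes at least 2-fold lower. Leaving out glia-like cells of 7 or more myelin genes gave -0.30 for S100a4, 1.10 for S100a6 and 0.24 for S100a10. Within classes, clusters in place of gates moved 27 of the values and left 24 within their counting interval, the most of any alternative, and the cause was not tested. Leaving out the cell of most UMIs at each age, also chosen after seeing the data, moved 2, both of S100a6, to -1.999 in macrophage-like and 1.54 in Aldh1a2-Scara3 cells, and left 49. The 23 hair cell-like cells, the 113 epithelial-like cells of P7 and the 145 macrophage-like cells of P1 limit what can be read from S100a1, Calb1 and S100a4.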

Other observations

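Dividing and non-dividing glia-like cells had different S100a6 and S100a4 ratios between the ages, a difference that was not tested. Cells with a UMI of at least 4 of 8 cell cycle genes, such as Mki67 and Top2a, held 102 CPM of S100a6 at P1 (214 cells) and 114 CPM at P7 (517 cells), a log2 ratio of 0.16 (-0.06 to 0.38), while the other glia-like cells went from 130.5 to 583 CPM. S100a4 ran otherwise, from 67.9 to 30.2 CPM in dividing cells, a log2 ratio of -1.17 (-1.49 to -0.85), and from 55.4 to 60.2 CPM in the others. S100b was alike in both, with log2 ratios of 0.71 in each. At P7 glia-like cells of 7 or more myelin genes held 9760 of the 12372 glial S100a6 UMIs, and all dividing ones 651. The S100a6 contrast is therefore not separate from that by myelin genes. Median depth also differed, at 10090 and 10385 UMIs in dividing cells against 4898.5 and 5108 in the others. S100a11 ran against the myelin genes in glia-like cells at P7, with 247 CPM in cells of 0 to 2 myelin genes, 186 CPM in those of 3 to 6 and 102 CPM (91.0 to 115) in those of 7 or more.

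In groups too small for the report's comparisons, the 9 neutrophil-like cells of P1 held 72 S100a11 UMIs, or 1266 CPM (991 to 1595), and no S100a4 UMI. The 8 melanocyte-like cells of P1 held 102 S100b UMIs, or 2164 CPM (1764 to 2626), beside 5 Otor UMIs, and the 4 of P7 held 95 S100b UMIs. Scrublet marked 37.5% and 25% of these melanocyte-like cells as doublets, against 4.87% and 6.16% of all cells kept.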
